A study of Sus scrofa with 16 samples.

Results

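Chromatin remodellers and the enzymes that modify histones decide which genes of a cell can be read. Remodellers of the SWI/SNF, ISWI and CHD families use ATP to slide or evict nucleosomes, KMT2 proteins methylate histone H3 at promoters and enhancers, KDM proteins remove such methyl groups, and EP300 and CREBBP acetylate histones where transcription factors bind. NCOA proteins bring these activities to nuclear hormone receptors bound to their ligands, whereas NCOR proteins recruit histone deacetylases to receptors without ligand. In the pituitary, whose endocrine cells answer to thyroid hormone, steroids and cAMP, the same enzymes act with the factors that set hormone gene expression, and the demethylase KDM1A is required when these cell types form.

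Expression of 58 such genes was described in whole pituitaries of 16 Zlotnicka white gilts. They were all genes of the deposited comparison with a SMARC, ARID1 to ARID5, CHD, KMT2, KDM, NCOA or NCOR symbol, together with EP300 and CREBBP, and a minimum of 10 counts in 8 or more pigs was asked. All 58 genes named in this way passed that minimum, out of 25880 genes in the deposited count table, of which 13667 passed it. The lowest count of a member in any pig was 14, for ARID5A, and no named gene fell outside the limit. Levels are given as CPM, the counts relative to library size after TMM scaling, and were compared only between pigs, since exonic lengths were not available here to compare one gene with another.

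The pigs fell into 2 groups, 8 pigs of low (LFC) and 8 of high (HFC) feed conversion, that is, the amount of feed taken per gain of body mass. All 16 were females of the same breed, labelled as 180 days old, which had been kept under the same housing and feeding at a test station and slaughtered at about 100 kg. Per the study's methods they were unrelated, came from different farms, and each gave 1 whole gland, so that anterior and posterior lobes were mixed in each library. In such bulk samples fewer cells of a type and less RNA per cell cannot be told apart. The study's methods give age at the end of the test with a spread, so the pigs were not all of 1 age. Per the study, HFC pigs of this breed spent more days on test and gained less per day than LFC pigs. They also had thicker fat in several measures, though not in all. Feed conversion, time on test, growth and fatness therefore cannot be told apart between the groups.

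Total counts of the libraries ran from 6010629 to 11794256, and those with the lowest totals were HFC replicate 5 and LFC replicate 6. The anterior lobe was seen in every library, with GH1 (growth hormone) between 23064 and 85944 CPM, and 6 of 7 hormone genes of the list were tested. Of these 6, PRL was higher in HFC pigs by 1.27 as log2 fold change (log2FC, HFC over LFC) and POMC and CGA were lower (-1.23 and -0.56) at an unadjusted p of 0.05 or less. In the other lists that p was reached by VWF and CDH5 (0.78 and 0.43) and ALAS2 (-0.97) among 6 blood and endothelial genes, where HBB had -1.05 (unadjusted p = 0.0517), by COL1A2 (0.89) among 6 fibroblast genes, of which DCN and LUM had -0.11 each, and by none of the glial, neurohormone and macrophage genes. Log2FCs were negative in 5 of 5 glial and 8 of 9 macrophage and leukocyte genes. No marker passed an adjusted p of 0.05 (smallest 0.372, quasi-likelihood F test of edgeR, Benjamini-Hochberg adjustment). The part of these cell types in the results that follow was not tested. The posterior lobe varied far more, as 5 of 10 glial and myelin genes were tested and their summed level ran from 185 to 6059 CPM in the LFC pigs and from 179 to 3343 CPM in the HFC pigs. AVP and OXT summed to between 7.74 and 169 CPM in the LFC and between 0.327 and 135 CPM in the HFC pigs, and OXT and OLIG1 were at 0 in some pigs. The lists for macrophages and leukocytes (9 of 9 tested) and fibroblasts (6 of 6 tested) summed to between 129 and 429 CPM and between 243 and 869 CPM. Blood and endothelial genes (6 of 10 tested) summed to between 415 and 1527 CPM in the LFC pigs and between 216 and 1167 CPM in the HFC pigs.

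The question put to these genes was whether they differ with feed conversion. No member passed an adjusted p of 0.05 with a fold change of at least 1.3, and 0.0% of the 13621 genes tested did (quasi-likelihood F test of edgeR, Benjamini-Hochberg adjustment). The smallest adjusted p of a member was 0.391, that of CHD9. DESeq2 also called 0 of the 58, with a smallest adjusted p of 0.144, against 29 genes (0.153%) of the 18963 genes with a count in any pig. These 18963 were put in without the expression filter used for edgeR, so they include genes of far lower counts than the members. Genes with an unadjusted p of 0.05 or less are called nominally higher or lower below. Of the 58 genes, 25 (43.1%) were nominally higher in the HFC pigs and 0 were nominally lower. Among all genes tested 7.03% were higher and 4.41% were lower in this sense, and among the 2806 genes whose span in the genome was at least the 88.6 kb median of the members, 13.4% were higher. The count was 16 with total library scaling, under which 46.0% of all nominal calls were higher ones against 61.4% with TMM. It was also 16 without LFC replicate 4, where 683 of 13695 genes tested were higher, against 958 of 13621 with all pigs. DESeq2 had 25 members nominally higher and 0 lower, against 6.1% and 3.88% of its genes. The direction was shared more widely than the p, as 51 of the 58 log2FCs were positive, against 47.9% of all genes, with a median of 0.27 against -0.01. With another scaling of the libraries the direction of SMARCAL1 alone flipped, from a log2FC of -0.00, and with a covariate for gene length, described below, 9 directions turned negative.

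**Figure D1:**
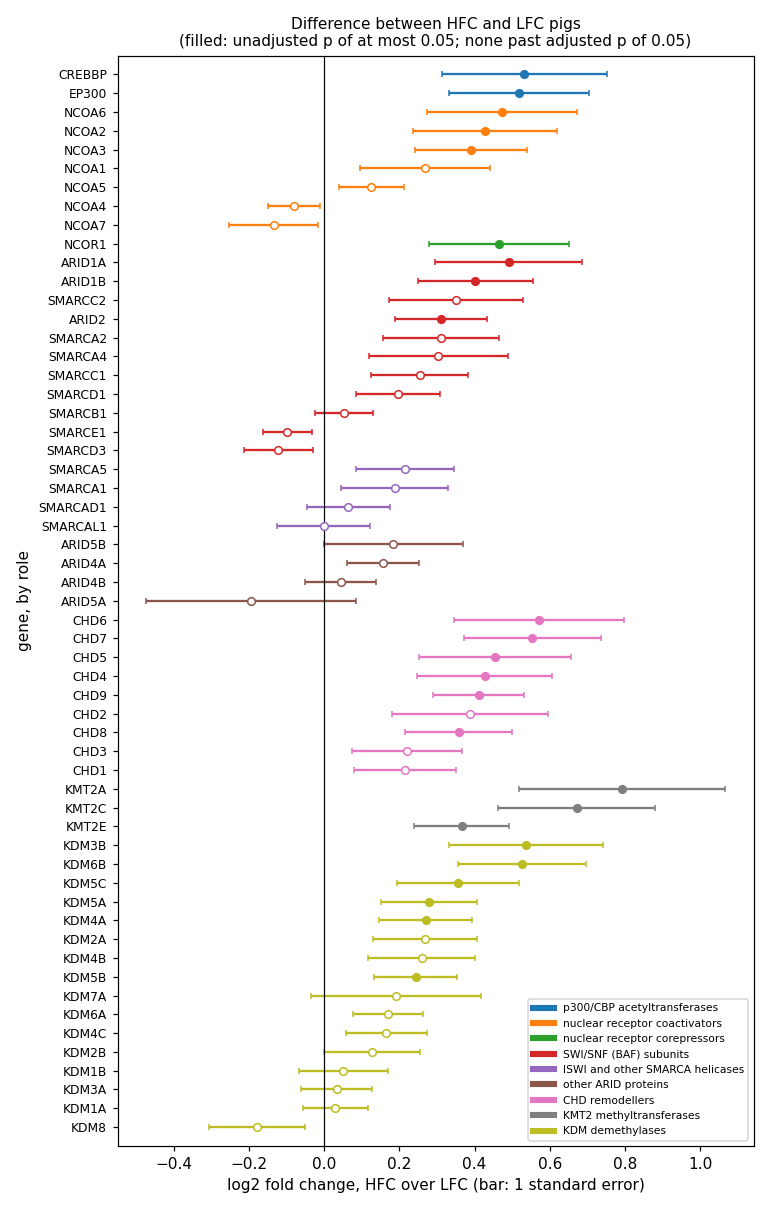
Log2 fold change, HFC over LFC, of 57 of the genes ordered by role (horizontal axis, log2 units), with bars of 1 standard error from edgeR and filled points for genes with unadjusted p no larger than 0.05. The 24 filled points all lie to the right of 0, between 0.24 and 0.79, and none passed an adjusted p of 0.05.

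The groups overlapped in each of the 58 genes, whereas 0.00734% of all genes tested, which is 1 gene, did not overlap. In 34 members at least 7 of the 8 HFC pigs were above the LFC median, as in 15.3% of all genes tested, and the members are not independent of each other. The most HFC pigs to lie above the highest LFC pig were 6, in CHD9 and in ARID2.

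The paired acetyltransferases EP300 and CREBBP are close relatives that serve as coactivators for CREB, nuclear receptors and Notch. EP300 ran from 32.0 CPM through a median of 55.1 to 90.2 CPM in the LFC pigs, and from 46.2 through 80.4 to 104 CPM in the HFC pigs. CREBBP (chromosome 3, 38387613 to 38529150, Sscrofa11.1) ran from 18.3 through 42.2 to 56.3 CPM in the LFC pigs and from 26.1 through 61.5 to 69.9 CPM in the HFC pigs. In both genes LFC replicates 6 and 4 were the lowest of their group, and HFC replicate 5 was the lowest of its own, at a level under the LFC median. The log2FC of CREBBP was 0.53 (standard error, SE, 0.22, unadjusted p = 0.0262), and it stayed between 0.45 and 0.65 with each pig left out. The log2 ratio of EP300 to CREBBP within a pig was 0.59 ± 0.19 across LFC and 0.58 ± 0.19 across HFC pigs (SD, n = 8 each).

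**Figure D2:**
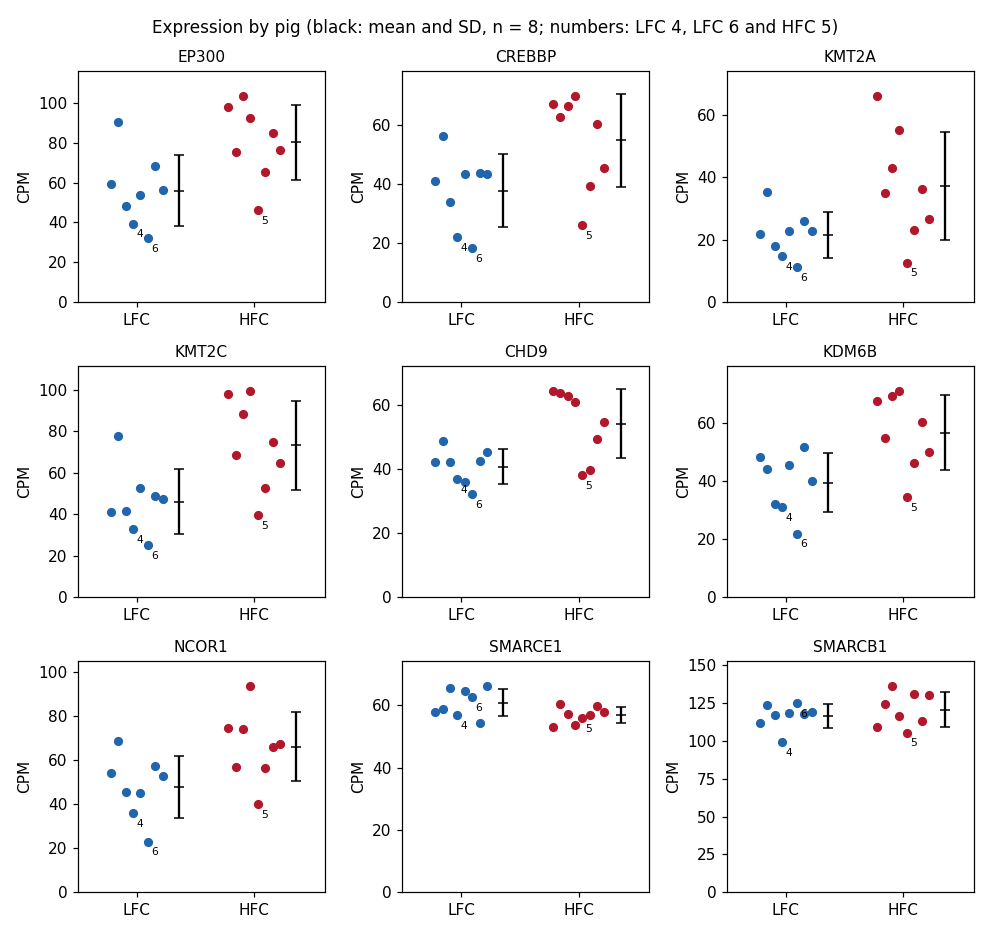
CPM in each pig for 9 of the genes (vertical axes start at 0; blue points LFC, red points HFC, black marks mean and SD, n = 8), with LFC replicates 4 and 6 and HFC replicate 5 numbered. These 3 pigs lie at or near the bottom of their group in EP300, CREBBP, KMT2A, KMT2C, CHD9, KDM6B and NCOR1, whereas SMARCE1 and SMARCB1 vary little between pigs.

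The KMT2 methyltransferases had the highest median log2FC of the 9 roles, 0.67, and all 3 members were nominally higher. KMT2A, the MLL methyltransferase of active promoters (chromosome 9, 45743478 to 45823883), ran from 11.13 through 22.2 to 35.1 CPM in the LFC pigs and from 12.6 through 35.6 to 66.1 CPM in the HFC pigs. Its log2FC of 0.79 (SE 0.27) was the highest among the members, and 4 HFC pigs lay above all LFC pigs. KMT2C, which methylates enhancers (chromosome 18, 4993204 to 5277722), ran from 25.2 through 44.5 to 77.8 CPM in the LFC pigs and from 39.6 through 71.7 to 99.6 CPM in the HFC pigs. The highest LFC value of both genes came from replicate 2, which overlapped the middle of the HFC pigs. KMT2C had a log2FC of 0.67 (SE 0.21). KMT2E, a family member without known methyltransferase activity, was the smallest of the 3, with a log2FC of 0.37 (SE 0.13). It ran from 42.8 through 65.0 to 77.0 CPM in the LFC pigs and from 60.5 through 79.3 to 111 CPM in the HFC pigs. KMT2B and KMT2D, family genes that the choice of members did not cover, had log2FCs of 0.63 (SE 0.19, unadjusted p = 0.00346) and 1.05 (SE 0.33, unadjusted p = 0.00523). KMT2D was named by its position alone. ARID3A and ARID3B, also outside the choice, had log2FCs of 0.28 each (unadjusted p = 0.116 and 0.153).

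Of the 9 CHD remodellers all had positive log2FCs, from 0.22 to 0.57, and 6 were nominally higher. CHD9 (chromosome 6, 31832493 to 31979935) had the smallest p of the members (0.00330). It ran from 32.2 through 42.0 to 48.6 CPM in the LFC pigs and from 38.1 through 57.6 to 64.3 CPM in the HFC pigs, a log2FC of 0.41 (SE 0.12). HFC replicates 5 and 6 lay within the LFC range and the other 6 lay above it. CHD7, mutated in CHARGE syndrome (chromosome 4, 72573566 to 72694141), ran from 11.5 through 23.8 to 37.0 CPM in the LFC pigs and from 24.2 through 36.2 to 46.5 CPM in the HFC pigs. Each of the 8 HFC pigs was above the LFC median of CHD7, and the log2FC was 0.55 (SE 0.18). The NuRD remodellers had log2FCs of 0.43 for CHD4, 0.45 for CHD5 and 0.22 for CHD3 (unadjusted p = 0.0287, 0.0364 and 0.148). CHD3 ran from 157 through 266 to 313 CPM in the LFC pigs and from 191 through 300.3 to 342 CPM in the HFC pigs. The deposited span of CHD3 is 67.9 kb, against 27.5 kb in the RefSeq annotation, and it overlaps that of KDM6B. Whether this altered the CHD3 counts was not tested. Within a pig the log2 ratio of CHD4 to CHD3 was -0.78 ± 0.18 across LFC and -0.56 ± 0.18 across HFC pigs (SD, n = 8 each), a difference larger than the SD, with 8 of 8 HFC pigs above the LFC median.

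Of the nuclear receptor cofactors, the corepressor NCOR1 had a log2FC of 0.46 (SE 0.19) and was nominally higher. The p160 coactivators NCOA2 and NCOA3 had log2FCs of 0.43 and 0.39, and NCOA6, a subunit of the KMT2C and KMT2D complexes, one of 0.47, all 3 nominally higher. NCOA1, the remaining p160 coactivator, had a log2FC of 0.27 (unadjusted p = 0.139). The log2 ratio of NCOA2 to NCOA1 within a pig was -0.60 ± 0.14 across LFC and -0.43 ± 0.12 across HFC pigs (SD, n = 8 each), with 8 of 8 HFC pigs above the LFC median. NCOA4, better known as the receptor that takes ferritin to autophagy, ran from 86.0 through 97.7 to 103 CPM in the LFC pigs and from 82.7 through 89.4 to 104 CPM in the HFC pigs, a log2FC of -0.08 (SE 0.07). NCOA7 ran from 57.9 through 64.6 to 92.4 CPM in the LFC pigs and from 48.3 through 65.9 to 82.6 CPM in the HFC pigs, and its log2FC of -0.13 (SE 0.12) was among the 3 lowest of the members. With 1 pig left out it was between -0.20 and -0.05, the latter without LFC replicate 8.

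In the SWI/SNF complex 9 of 11 subunits had positive log2FCs, with a median of 0.30. The subunits that bind DNA and define the BAF and PBAF forms of the complex, ARID1A, ARID1B and ARID2, had log2FCs of 0.49, 0.40 and 0.31 and were the 3 of its 11 members that were nominally higher. ARID1B (chromosome 1, 9791634 to 10227947) ran from 17.3 through 31.1 to 38.1 CPM in the LFC pigs and from 25.6 through 37.8 to 46.0 CPM in the HFC pigs. The ATPases SMARCA2 and SMARCA4 and the scaffolds SMARCC1 and SMARCC2 had log2FCs between 0.25 and 0.35, with unadjusted p-values from 0.0600 to 0.118. SMARCC2 ran from 65.3 through 122 to 174 CPM in the LFC pigs and from 97.5 through 151 to 185 CPM in the HFC pigs. The smaller subunits SMARCD1, SMARCB1, SMARCE1 and SMARCD3 had log2FCs of 0.20, 0.05, -0.10 and -0.12. SMARCE1 ran only from 54.3 through 60.8 to 66.2 CPM in the LFC pigs and from 53.1 through 57.1 to 60.4 CPM in the HFC pigs, where 0 of 8 pigs exceeded the LFC median (adjusted p = 0.511, quasi-likelihood F test of edgeR, Benjamini-Hochberg adjustment). The log2 ratio of SMARCA4 to SMARCA2, the alternative motors of the complex, was -0.85 in both groups, with an SD of 0.18 in the LFC and 0.20 in the HFC pigs (n = 8).

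The ISWI motors SMARCA1 and SMARCA5 and the helicases SMARCAD1 and SMARCAL1 had log2FCs from -0.00 to 0.21, none of them nominally higher. SMARCA1 ran from 144 through 227 to 271 CPM in the LFC pigs and from 196 through 231 to 307 CPM in the HFC pigs. The ARID genes outside SWI/SNF likewise held no such gene. ARID4B, a subunit of the SIN3 deacetylase complex, ran from 73.6 through 84.5 to 104.5 CPM in the LFC pigs and from 69.1 through 89.7 to 106 CPM among HFC pigs. ARID5A, with the lowest counts, ran from 3.39 through 5.47 to 6.32 CPM in the LFC pigs and from 1.52 through 4.20 to 8.20 CPM in the HFC pigs, and its log2FC of -0.19 had a standard error of 0.28. It was -0.39 without HFC replicate 6 and -0.06 without HFC replicate 8.

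Of the 16 demethylases, 15 had positive log2FCs and 6 were nominally higher. KDM6B, which removes the repressive methyl marks set by Polycomb (chromosome 12, 52796952 to 53108916), ran from 21.9 through 42.1 to 51.9 CPM in the LFC pigs and from 34.4 through 57.6 to 71.1 CPM in the HFC pigs. Its log2FC was 0.53 (SE 0.17). The deposited span of KDM6B is 312 kb, against 21.9 kb in the RefSeq annotation of the same assembly, so reads of neighbouring genes may have been counted with it, which was not tested. It ends beyond the deposited start of the member CHD3 (chromosome 12, 53097729), so the spans of KDM6B and CHD3 overlap. Its relative KDM6A had a log2FC of 0.17 (SE 0.09). The 3 KDM5 genes, whose products remove methyl groups from histone H3 at promoters, were nominally higher, with log2FCs of 0.28, 0.24 and 0.35 for KDM5A, KDM5B and KDM5C. KDM5C ran from 48.5 through 85.0 to 115 CPM in the LFC pigs and from 68.8 through 111 to 134 CPM in the HFC pigs. KDM3B had a log2FC of 0.54 (SE 0.20), whereas KDM3A had one of 0.03 (SE 0.09). The log2 ratio of KDM3B to KDM3A within a pig was -1.40 ± 0.48 across LFC and -0.84 ± 0.28 across HFC pigs (SD, n = 8 each), a difference larger than the SD. The flavin-dependent KDM1A and KDM1B had log2FCs of 0.03 and 0.05 (SE 0.09 and 0.12). KDM8 was the lowest of the role, at -0.18 (SE 0.13), and ran from 12.5 through 17.6 to 25.002 CPM in the LFC pigs and from 13.5 through 15.4 to 21.1 CPM in the HFC pigs. Without LFC replicate 6 its log2FC was -0.09. Of 16 pairs of related members, the within-pig ratio differed between the groups by more than the SD in the 3 pairs given above, CHD4 to CHD3, KDM3B to KDM3A and NCOA2 to NCOA1, and the ratios were described without a test.

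The partners of these genes, a list of 80 subunits and related enzymes of which 77 were tested, had a lower median. Their spans ran from 2.74 kb (GPS2) to 326 kb (JMJD1C), and the medians of partners and members were not compared at like span. Of the 77, 13 were nominally higher and 1 nominally lower, against 7.03% and 4.41% of all genes tested, and the median log2FC was 0.09. None passed an adjusted p of 0.05 (smallest 0.410, quasi-likelihood F test of edgeR, Benjamini-Hochberg adjustment). The genes with the smallest p were EP400, an ATPase of the TIP60 complex, KAT6A, an acetyltransferase, and HCFC1, a cofactor of methyltransferase complexes, with log2FCs of 0.65, 0.54 and 0.65. EP400 ran from 11.13 through 26.4 to 37.8 CPM in the LFC pigs and from 23.1 through 38.5 to 55.0 CPM in the HFC pigs. In the other direction DPY30, a small COMPASS subunit, had a log2FC of -0.33 (unadjusted p = 0.0416), followed by TBL1XR1 with -0.23 and KAT5 with -0.24 (unadjusted p = 0.0691 and 0.0704). Among COMPASS subunits, 4 of 11 were higher, among NuRD subunits 1 of 11, among other SWI/SNF subunits 2 of 16, and among subunits of the NCOR complex 0 of 5, to be read against the same 7.03%.

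The members varied together from pig to pig. Across the 16 pigs, 35 of the other 57 members had a Pearson's r of at least 0.8 with EP300 on log2(CPM + 1), against 8.62% of the 13563 genes tested that were no members. That 8.62% covers genes of every span and was not computed for genes of like span. For these 35 genes rho was at least 0.703, and the permutation p-values were at most 0.00018 for r and 0.00337 for rho, or 0.000284 and 0.00491 adjusted over the 115 relations computed (100000 resamples, two-sided). The number was 35 within the LFC pigs and 34 within the HFC pigs, and 27 without LFC replicates 6 and 4, which lay farthest from the EP300 median. ARID1A was the most like EP300, with r and rho of 0.985 (permutation p = 1e-05 for each, the lowest value 100000 resamples allow). In contrast, 5 members had a negative r, and these were SMARCD3, SMARCE1, KDM8, ARID5A and NCOA4. For SMARCD3, r and rho were -0.83, with a permutation p of 9e-05 for each (adjusted 0.000146 and 0.000182), and r was -0.76 without LFC replicates 6 and 4.

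**Figure D3:**
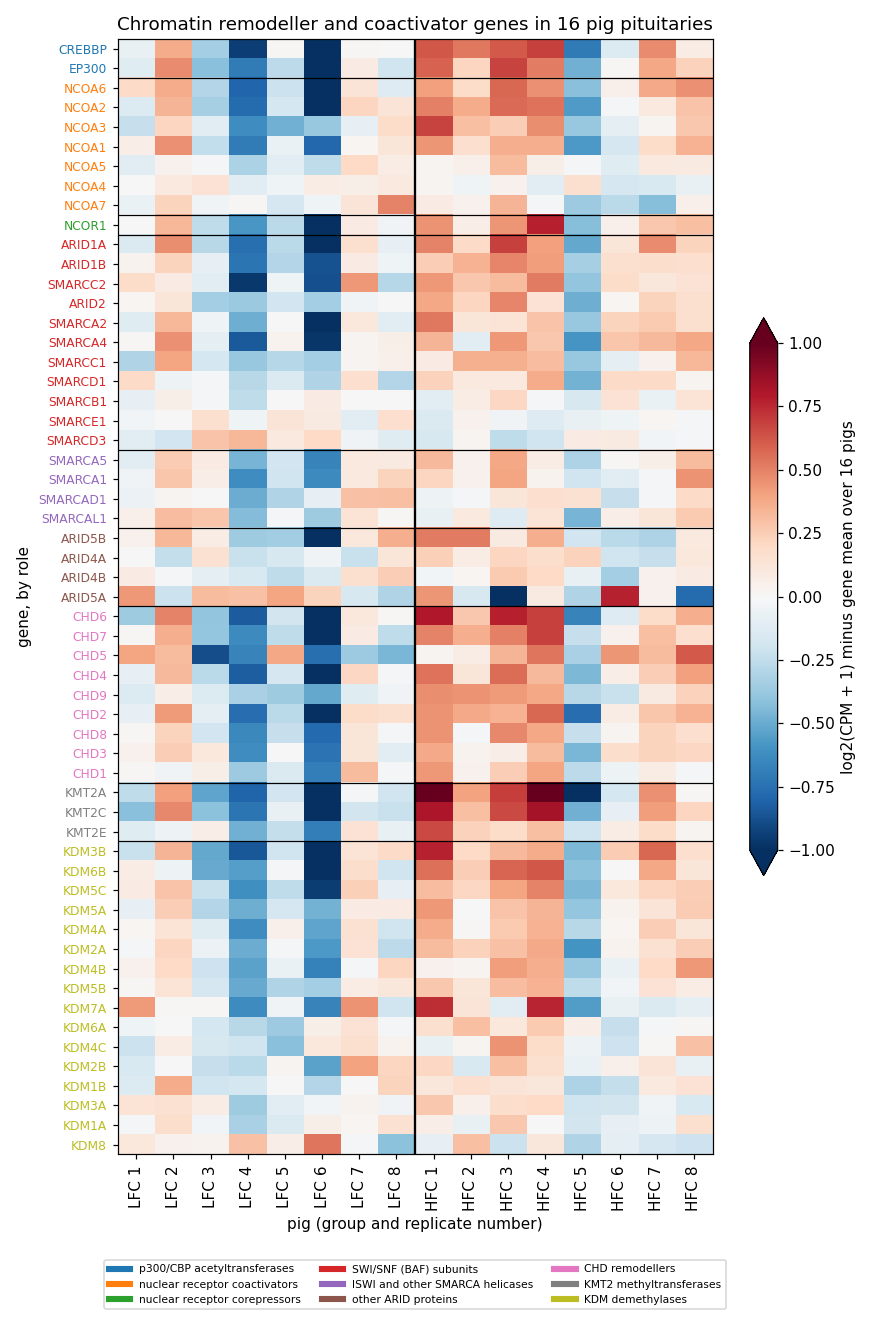
Log2(CPM + 1) of 57 of the genes in the 16 pigs, each gene centred on its mean over the pigs (colour, log2 units, cut at 1 on either side), with genes ordered by role and colour of the name. LFC replicates 4 and 6 and HFC replicate 5 are blue in most rows, and over all 58 genes 47 had their lowest level in 1 of these 3 pigs, against 33.2% of all genes tested.

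The lowest level of a member fell to LFC replicate 6 in 31 genes, to LFC replicate 4 in 11 and to HFC replicate 5 in 5. The highest level fell to HFC replicates 1, 3 and 4 in 13, 14 and 13 genes. Averaged over the 58 genes, the level relative to the mean of all pigs was -0.14 ± 0.27 log2 units across LFC and 0.14 ± 0.22 across HFC pigs (SD, n = 8 each).

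The members are long genes, with a median span of 88.6 kb against 30.9 kb over the tested genes, and a property of each library was therefore set beside them. For each pig the slope of log2(CPM + 1), centred by gene, on the log2 span of the gene was computed over 12793 tested genes that were no members. The slope ran from -0.0741 through a median of -0.00971 to 0.0314 log2 units per doubling of span in the LFC pigs, and from -0.0589 through 0.0184 to 0.0577 in the HFC pigs. Its means were -0.0151 ± 0.0400 in the LFC and 0.0151 ± 0.0345 in the HFC pigs (SD, n = 8 each), and the difference of 0.0303 was smaller than either SD. An exact two-sided permutation test over 12870 splits gave p = 0.126. Without HFC replicate 5 the difference was 0.0408 instead of 0.0303 (exact two-sided permutation p = 0.0221). That was the largest difference with 1 pig left out. Over all such runs it was between 0.0218 and 0.0408, with p between 0.0221 and 0.252 in the same test. The 3 lowest slopes were those of LFC replicates 6 and 4 and HFC replicate 5, the same 3 pigs in which the members were lowest.

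Across the 16 pigs, 36 of the 58 members had an r of at least 0.8 with the slope, against 8.97% of the other genes tested, with a rho of at least 0.732. The slope is by its making high in libraries where long genes are high, and the members are long genes. The 8.97% covers genes of every span, and the share among genes of like span was not computed. Permutation p-values of the 36 were at most 9e-05 for r and 0.00192 for rho, or 0.000146 and 0.00298 adjusted over the 115 relations, and 27 had such an r without LFC replicates 6 and 4. The number was 40 within the LFC pigs and 37 within the HFC pigs. NCOA2 followed the slope most closely (r = 0.97, rho = 0.97, permutation p = 1e-05 for both), and SMARCD3 ran against it (r = -0.82, rho = -0.85, permutation p = 0.00016 and 6e-05). EP300 itself had an r of 0.94 and a rho of 0.95 with the slope (permutation p = 1e-05 for both). Whether the members vary with EP300 beyond what both share with the slope was not tested.

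**Figure D4:**
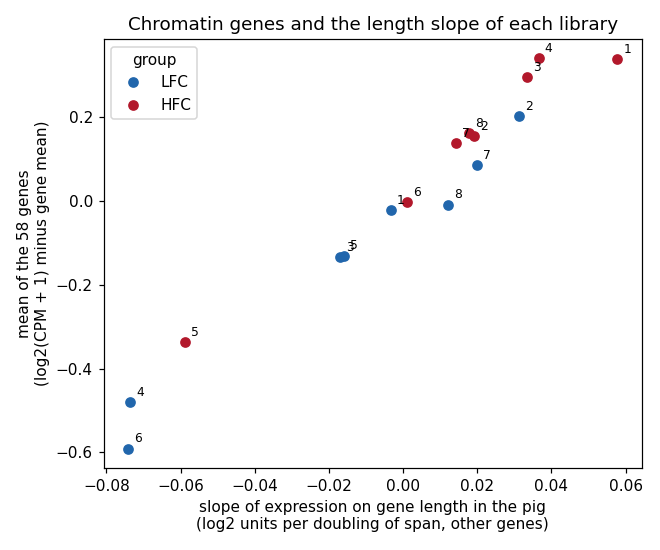
Mean of the 58 genes in each pig (vertical axis, log2(CPM + 1) relative to the gene means) against the slope of expression on gene span over all other genes (horizontal axis, log2 units per doubling of span), with LFC pigs in blue, HFC pigs in red and replicate numbers beside the points. LFC replicates 4 and 6 and HFC replicate 5 sit at the lower left, with slopes of -0.0737, -0.0741 and -0.0589.

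With the slope as a covariate in edgeR's fit, 10 members were nominally higher and 1 nominally lower (against 2.73% and 2.02% of all genes tested), and the median log2FC of the members was 0.08. Of the 58, 42 had positive log2FCs in that fit, against 51 with the group alone and 50.1% of all genes tested. The 9 that turned from positive to negative were ARID4B, ARID5B, KDM1A, KDM1B, KDM2B, KDM3A, KDM7A, NCOA1 and SMARCAD1. All 25 genes above had smaller log2FCs in that fit, from 0.07 to 0.33, and the 10 were among them. These were KMT2C, CHD7, CHD9, EP300, KDM6B, KMT2E, KDM3B, ARID1B, ARID1A and CHD8. KMT2C had a log2FC of 0.33, CHD7 one of 0.29, CHD9 one of 0.23, EP300 one of 0.22 and KMT2A one of 0.26, the last with an unadjusted p of 0.0882. The gene that was lower was NCOA7, with a log2FC of -0.25.

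**Figure D5:**
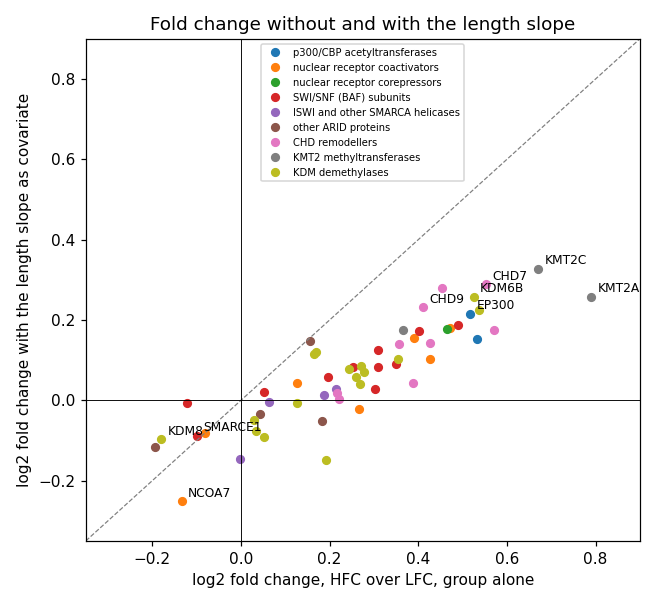
Log2 fold change of 57 members, HFC over LFC, with the group alone (horizontal axis) and with the length slope of the library as a covariate (vertical axis), coloured by role. The dashed line marks equal values, and the 24 genes drawn that were nominally higher with the group alone lie under it.

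Without the 3 pigs of lowest slope, a choice made after the values were seen, 28 of the 58 were nominally higher and 0 were nominally lower (against 7.69% and 6.66% of all genes tested), with a median log2FC of 0.20, and 24 of the 25 genes above were among the 28. The log2FCs of the 25 were then between 0.20 and 0.75. LFC replicate 4 and HFC replicate 5 also had the highest summed level of blood and endothelial genes in their groups, 1527 and 1167 CPM, and LFC replicate 6 had 781 CPM. In these 3 pigs the glial and myelin genes summed to 300.5, 238 and 185 CPM, and the hormone genes to between 154561 and 155420 CPM, near the medians of 155086 CPM in the LFC and 151660 CPM in the HFC pigs. Of the blood and endothelial genes HBB reached 1414 CPM in a pig, whereas none of the others exceeded 71.1 CPM, the highest value of PECAM1. The part of blood and glial content in the result was not tested. For RNA integrity the study gives only a lower bound for all samples and no value per pig. It could therefore not be compared between these 3 pigs and the others, and its part was not tested.

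Within the members, the log2FC between the groups was larger in genes of longer span (r = 0.47 and rho = 0.41 over 58 genes that share the same libraries, r = 0.41 with RefSeq spans), and over the 12793 other genes tested r was 0.25. Of the 47 members that span at least 50 kb, 22 were nominally higher and 2 had a negative log2FC, with a median of 0.30. Of the 11 shorter members these numbers were 3 and 5, with a median of 0.05. Over all genes tested 7.03% were nominally higher, and that share was not computed on either side of 50 kb. By RefSeq span CHD3 (27.5 kb), KDM6B (21.9 kb), SMARCA5 (40.4 kb) and SMARCC2 (23.4 kb) would fall under 50 kb, and of these KDM6B was nominally higher. RefSeq and deposited spans differed by more than 1.5-fold in 6 members, among them CHD3, KDM6B and SMARCC2. The family genes outside the choice, KMT2B, KMT2D, ARID3A and ARID3B, span 13.5, 26, 36.3 and 66.3 kb. Their log2FCs were 0.63, 1.05, 0.28 and 0.28 with the group alone. With the slope as a covariate these were 0.33, 0.44, 0.13 and 0.23.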

How the data were processed

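RNA of whole pituitaries was sequenced with an unstranded kit. The authors trimmed the reads with Flexbar, ran RSEM with STAR on the Sscrofa11.1 assembly and Ensembl genes (the methods name Bowtie as aligner too), and deposited raw counts of reads per gene and pig. Per the labels, CASAVA 1.8.2 and FastQC were also used. A deposited comparison of the authors (group means, ratio, log2 ratio, p-values) gave gene symbols and positions only, and its statistics were not used. Groups came from the labels low_FCR and high_FCR, which stand under a field named for shear force. With reads counted without strand, overlapping antisense genes cannot be told apart.

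In R 4.3.3, counts were tested with edgeR 4.0.16 (TMM, expression filter by group, quasi-likelihood F test, Benjamini-Hochberg over 13621 genes), and the standard error was taken from the F statistic. Unless stated otherwise, fold changes, standard errors and p-values in the report are from this fit. DESeq2 1.42.0 and limma 3.58.1 served as alternatives, and Python 3.11.15 with scipy 1.17.1, pandas 2.3.3 and numpy 2.4.6 did the rest. Libraries of a group were not copies of each other (chi-square per degree of freedom from 9.90 to 73.3). Spans were known for 94.3% of tested genes. On simulated counts of 13621 genes for this comparison, 83 of 100 genes changed 2-fold and 44 of 100 changed 1.5-fold were recovered, with 6 unchanged genes called. The genes were simulated independently of each other, without variation shared by the genes of a library, so these numbers do not give the recovery in the real libraries.

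The members, roles and lists were chosen with earlier results of these data known. Values by group are given in full for EP300, CREBBP, the 8 members with the smallest p, the 3 with the lowest log2 fold change and the member of each role with the highest CPM. Partners were named for the 3 lowest p-values each way. The values of 1 member are not reported here, and it was left out of the figures that show single genes. NCOR1, SMARCB1, SMARCD1, SMARCD3, SMARCE1 and the marker genes named for their p, and the ratios of related genes, computed with 0.5 added to each count, were chosen after their values were seen. Depth limits precision through counting error most in ARID5A.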

Additional observations from a re-analysis of the deposited data

Results flagged for a closer look

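HFC replicate 5 stood apart from the other HFC pigs in 4 of the 18 genes whose values are given in full, with a gap to the next pig of more than 0.526 of the range of the group on log2(CPM + 1). It had 25.6 CPM of ARID1B against 36.3 in the next pig, and 191 CPM of CHD3 against 270.0. The values were 68.8 against 102 CPM for KDM5C and 97.5 against 139 CPM for SMARCC2. Of 38 sets of 8 values examined, about 5% would stand out in this way by chance, and these 4 genes vary together, so they are not separate events. This pig also had the lowest total count, 6010629.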

How the results depend on the processing

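The number of members higher in the HFC pigs at an unadjusted p of at most 0.05, 25 as reported, was 16 with total library scaling, 10 with the length slope as a covariate, and between 16 (without LFC replicate 4) and 36 (without HFC replicate 5) with 1 pig left out. With total library scaling 639 of all genes tested were higher and 750 lower, so that the higher share fell from 61.4% to 46.0%. Over all genes tested, 683 of 13695 were higher without LFC replicate 4 and 1894 of 13697 without HFC replicate 5, against 958 of 13621 with all pigs. Lower genes numbered 330, 1620 and 601 in these fits. The member count was 25 with DESeq2, RLE, upper-quartile scaling, either other filter and robust estimation. With limma voom it was 29, and 1313 of the 13621 genes tested were higher and 1227 lower. With the length slope 1 member was lower, the positive log2 fold changes fell from 51 to 42, and 9 turned negative, among them ARID4B at -0.0338, the only one of these whose values are given in full. The median log2 fold change was between 0.22 and 0.35 with 1 pig left out, and between 49 and 52 log2 fold changes were positive. Replicate numbers did not pair the pigs, as deviations of same-numbered pigs correlated between -0.34 and 0.37 and 0 of 8 LFC pigs correlated best with their own number. With the replicate number as a block 23 members were higher, with a median log2 fold change of 0.27. The difference in length slope of 0.0303 was 0.0408 without HFC replicate 5 (exact two-sided permutation p = 0.0221). It was between 0.0218 and 0.0408 over the pigs left out, with p between 0.0221 and 0.252 in the same test. Members with an r of at least 0.8 with EP300 numbered between 31 and 36 in those runs. Slopes on exonic or protein length were not run, since no such lengths were at hand. Why a value moved was not tested beyond what each alternative changes.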
